A study of Mus musculus with 9 samples.

Results

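S100 genes encode small proteins that bind calcium through paired EF hand motifs and act mostly as dimers. Here 7 of them were followed in sorted lung neutrophils, namely S100a8, S100a9, S100a4, S100a6, S100a10, S100a11 and S100a13. They were picked by gene symbol from a table of 22064 genes, of which 18325 had values, and all 7 were among the 14108 genes that passed the filter on low counts.

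S100a8 and S100a9 are the best known members in this cell type. Their proteins join into calprotectin, which fills much of the cytosol of a neutrophil, withholds zinc and manganese from microbes and, once released, signals through Toll-like receptor 4 and the receptor for advanced glycation end products. The other members work mainly inside the cell, where they bind annexins, myosin and components of the unconventional export route, and S100A4 protein is a classical marker of metastatic tumor and stromal cells.

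The neutrophils came from female BALB/c mice and were sorted as CD45-positive cells by the surface level of Ly6G. MACRO Ly6Ghigh and MACRO Ly6Glow cells were taken from lungs at the macrometastatic stage after injection into the mammary fat pad of 4T1-LM3 cells, which descend from the mouse breast carcinoma line 4T1 and were selected for spread to the lung. Ly6Ghigh cells of normal lung carried no injection in their label, and the free-text description of these libraries names the Ly6Ghigh group only, so that their assignment rests on their titles and treatment fields. No genetic modification of the mice is named, and the lower and higher gates were separated at the inflection of the Ly6G histogram. Each group had 3 libraries, labelled as separate biosamples, and the sources do not say whether mice were pooled, so p-values measure only the spread between these libraries.

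The libraries held 15267177 to 17841807 estimated counts each. Levels are given as CPM, counts scaled to a common library total after TMM scaling, whose factors ran from 0.803 to 1.32 with the highest in normal lung. FPKM, which are fragment numbers scaled for transcript length and depth, were used where levels of different genes are set side by side. The Ly6g transcript was at 361 to 380.04 CPM in MACRO Ly6Ghigh, 385 to 403 CPM in MACRO Ly6Glow and 118 to 120.2 CPM in normal lung libraries, so at the RNA level it did not separate the sorted MACRO groups in the direction of the gate. On FPKM the order of the MACRO groups was the opposite, with 396 to 417 in MACRO Ly6Ghigh and 358 to 373 in MACRO Ly6Glow. Normal lung libraries also held more RNA of other lung cells. The summed level of 8 epithelial markers was 954 to 1058 CPM in normal lung against 93.7 to 103.7 CPM in the MACRO libraries, that of 7 endothelial markers was 1009 to 1091 against 150.1 to 190.1 CPM, and that of 8 fibroblast markers was 578 to 601 against 59.6 to 68.5 CPM. None of these markers was at 0 in every library of any group. In bulk RNA, fewer cells of a type and less RNA per cell cannot be told apart.

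All 7 genes lie on mouse chromosome 3 (GRCm38, GENCODE M21). S100a13 (chr3:90514435-90524581), S100a4 (chr3:90603771-90606045), S100a6 (chr3:90612882-90624181), S100a8 (chr3:90668978-90670035) and S100a9 (chr3:90692632-90695721) sit in a stretch of 184688 bases that holds 12 S100 genes. S100a11 (chr3:93520488-93526287) and S100a10 (chr3:93555080-93564643) form a pair 2824766 bases further on. S100a9 is on the minus strand and the other 6 are on the plus strand, so that S100a8 and S100a9 point toward each other across 22596 bases with no coding gene between them. Some counts can hold reads of other loci. S100a11 has 5 processed pseudogenes with at least 90% identity over 227 to 303 bases, and S100a4 overlaps the gene model Gm42674 on the same strand, with 302 bases in common between their transcripts. None of these loci is listed in the count table, and S100a13 overlaps S100a1 by 98 bases on the opposite strand in RefSeq.

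The windows of 250 bases before the RefSeq starts of S100a8 and S100a9 (GRCm38.p6) are shown because these neighbours both rose several-fold over normal lung, as described next. They cover chr3:90668821-90669070 on the plus strand for S100a8, where GENCODE starts the gene inside the window, and chr3:90695722-90695971 on the minus strand for S100a9. Capitals mark matches, on either strand, to any of 8 motifs searched by their letters.
S100a8: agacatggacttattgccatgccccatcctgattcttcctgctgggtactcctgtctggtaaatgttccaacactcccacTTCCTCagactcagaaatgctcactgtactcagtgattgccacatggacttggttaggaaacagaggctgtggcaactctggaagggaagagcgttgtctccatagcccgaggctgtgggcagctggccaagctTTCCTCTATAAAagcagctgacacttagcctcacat
S100a9: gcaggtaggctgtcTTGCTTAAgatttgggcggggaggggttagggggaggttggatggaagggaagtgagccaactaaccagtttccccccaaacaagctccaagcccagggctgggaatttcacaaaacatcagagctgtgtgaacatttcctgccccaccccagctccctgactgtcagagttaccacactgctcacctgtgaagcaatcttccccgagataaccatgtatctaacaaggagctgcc
The S100a8 window held a TATA box (TATAAA) that begins 30 bases before the start, directly after a PU.1 core (GAGGAA, read on the other strand), and a second PU.1 core 170 bases before the start. The S100a9 window held 1 C/EBP match (TTGCNNAA) 236 bases before the start. No motif was matched in both windows. Among 32851 promoter windows of the same length, 12.4% held TATAAA, 23.3% GAGGAA and 9.56% TTGCNNAA. The other motifs were the C/EBP and CHOP composite core (TGCAAT, in 7.32% of windows), AP-1 (TGANTCA, 6.75%), STAT (TTCNNNGAA, 7.02%), the HIF core (ACGTG, 16.6%) and an NF-kB pattern (45.8%), none of which was matched in either window. Of the 7 genes 6 had an entry among the promoters, S100a10 being the exception. S100a4 also held TATAAA, 31 bases before its start, and S100a11 held 2 AP-1 matches, 136 and 38 bases before its start.

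Both calprotectin genes were several-fold higher in the MACRO groups than in normal lung, and nearly level between MACRO Ly6Ghigh and MACRO Ly6Glow. S100a8 was at 4408.1, 4670.01 and 4356 CPM in the normal lung libraries, at 23470.2, 23277.5 and 23965 CPM in MACRO Ly6Ghigh and at 21499.6, 22235 and 22374.5 CPM in MACRO Ly6Glow. Every MACRO library was above every normal lung library, and the MACRO Ly6Glow libraries were all slightly below those of MACRO Ly6Ghigh. The log2 fold change over normal lung was 2.40 ± 0.03 (SE, adjusted p = 2.48e-24) in MACRO Ly6Ghigh, a 5.26-fold difference, and 2.30 ± 0.03 (adjusted p = 2.67e-24) in MACRO Ly6Glow.
S100a9 was at 7562, 7632 and 7495 CPM in normal lung, at 32680.4, 31091 and 31229 CPM in MACRO Ly6Ghigh and at 30185, 30844 and 30817 CPM in MACRO Ly6Glow. The groups stood in the same order as for S100a8. Its log2 fold change over normal lung was 2.07 ± 0.03 (adjusted p = 2.59e-24) in MACRO Ly6Ghigh, or 4.19-fold, and 2.02 ± 0.03 (adjusted p = 2.67e-24) in MACRO Ly6Glow. Between the MACRO groups the difference, as Ly6Glow over Ly6Ghigh, was -0.10 ± 0.03 for S100a8 (adjusted p = 0.00535) and -0.05 ± 0.02 for S100a9 (adjusted p = 0.102), both inside the fold threshold. S100a9 changed sign there with DESeq2's size factors (0.017), and on FPKM the differences were -0.33 and -0.28, still not called. Over normal lung, the log2 fold changes on FPKM were lower but still called. They were 1.93 in MACRO Ly6Ghigh and 1.60 in MACRO Ly6Glow for S100a8, and 1.60 and 1.32 for S100a9.

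**Figure D1:**
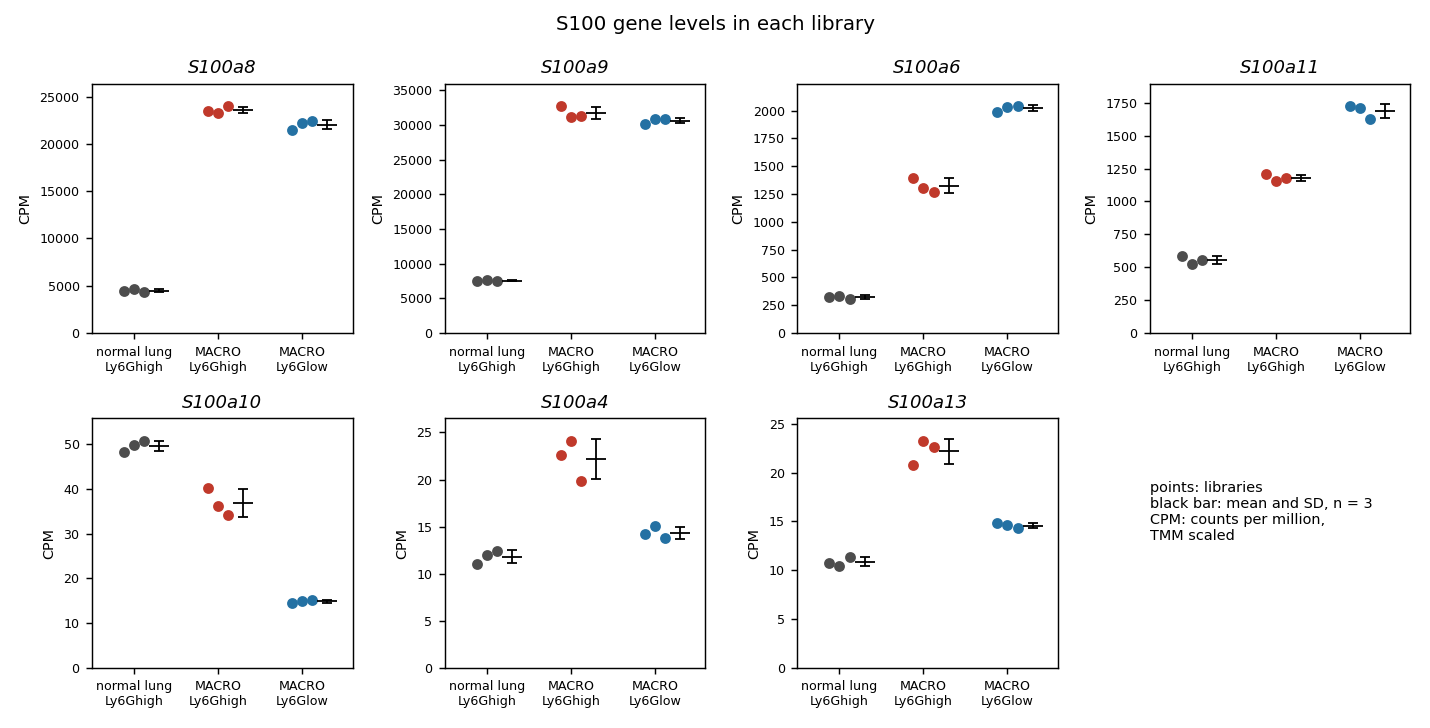
CPM of the 7 S100 genes (vertical axis from 0, its range set for each gene) in the 9 libraries by group, with a point for each library and the mean and SD of 3 libraries beside them. S100a8, S100a9, S100a6 and S100a11 are higher in both MACRO groups than in normal lung, S100a10 is lowest in MACRO Ly6Glow, and S100a4 and S100a13 are highest in MACRO Ly6Ghigh.

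Per length, these were the most abundant transcripts of the tables. S100a8 and S100a9 held the first and the second place by FPKM in every library. Together they took 5.16% to 5.31% of all counts in MACRO Ly6Ghigh, 4.17% to 4.29% in MACRO Ly6Glow and 1.55% to 1.63% in normal lung, which was 92.2% to 95.6% of the counts of all S100 genes. On FPKM the calprotectin genes were about level with each other in MACRO Ly6Ghigh, where S100a8 had 64434 to 66379 and S100a9 62209 to 65094. In normal lung S100a8 had 16579 to 18008 FPKM and S100a9 had 20621 to 21273.

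The balance between them therefore differed between groups. The count ratio of S100a8 to S100a9, which is not scaled for length and is compared between groups only, was 71.8%, 74.9% and 76.7% in MACRO Ly6Ghigh, 71.2%, 72.1% and 72.6% in MACRO Ly6Glow and 58.3%, 61.2% and 58.1% in normal lung. The MACRO groups overlapped and normal lung lay below both. An exact permutation test of the F statistic of log2 ratios over 280 assignments of the libraries to 3 groups, one-sided, gave p = 0.0107 (0.0107 after Benjamini-Hochberg adjustment over 3 ratios), where the smallest p the design allows is 0.00357. Such a ratio is taken within a library and does not depend on scaling between libraries.

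Markers of immature granulocytes moved across the same groups, and their part in the calprotectin result was not tested. The summed level of 12 such genes, among them the secondary granule genes Ltf, Ngp and Camp, was 35779 to 36512 CPM in MACRO Ly6Ghigh, 12887 to 13410 CPM in MACRO Ly6Glow and 6343 to 6630 CPM in normal lung. Of these 12 genes, 11 were called lower in MACRO Ly6Glow than in MACRO Ly6Ghigh, where 15.9% of all genes tested were called lower. S100a8 and S100a9 differed there by less than the threshold. The summed level of 12 general neutrophil marker genes was 21678 to 22029, 31928 to 32358 and 9951 to 10268 CPM in the same order of groups. The study describes its Ly6Glow neutrophils as relatively immature by nuclear shape, which these sums do not measure. Against normal lung, 11 of the 12 immature granulocyte genes were called higher in MACRO Ly6Ghigh, and 10 higher and 1 lower in MACRO Ly6Glow. Of all genes tested, 26.3% were called higher in MACRO Ly6Ghigh, and 28.7% higher and 40.8% lower in MACRO Ly6Glow. Camp and Chil3 were below normal lung in MACRO Ly6Glow, with means of 159 against 188 CPM and 277 against 964 CPM.

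A call required an adjusted p no higher than 0.05 (edgeR's quasi-likelihood test, Benjamini-Hochberg over all 14108 genes) and an absolute log2 fold change above 0.58. In MACRO Ly6Ghigh against normal lung, 6 of the 7 members were called higher, where 26.3% of all genes tested were called higher and 36.6% lower. In MACRO Ly6Glow against normal lung, 4 of the 7 were called higher and 1 lower, where 28.7% of all genes were called higher and 40.8% lower. Both comparisons use the same normal lung libraries. In MACRO Ly6Glow against MACRO Ly6Ghigh, 1 member was called higher and 3 lower, where 9.29% of all genes were called higher and 15.9% lower. The 3 libraries of each group did not overlap for any of the 7 members in any comparison, as was so for 85.3%, 86.9% and 62.1% of all genes tested in these comparisons, taken in the order above. The median log2 fold change of the members was 1.09, 1.60 and -0.10, beside -0.09, -0.16 and -0.04 for all genes tested.

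**Figure D2:**
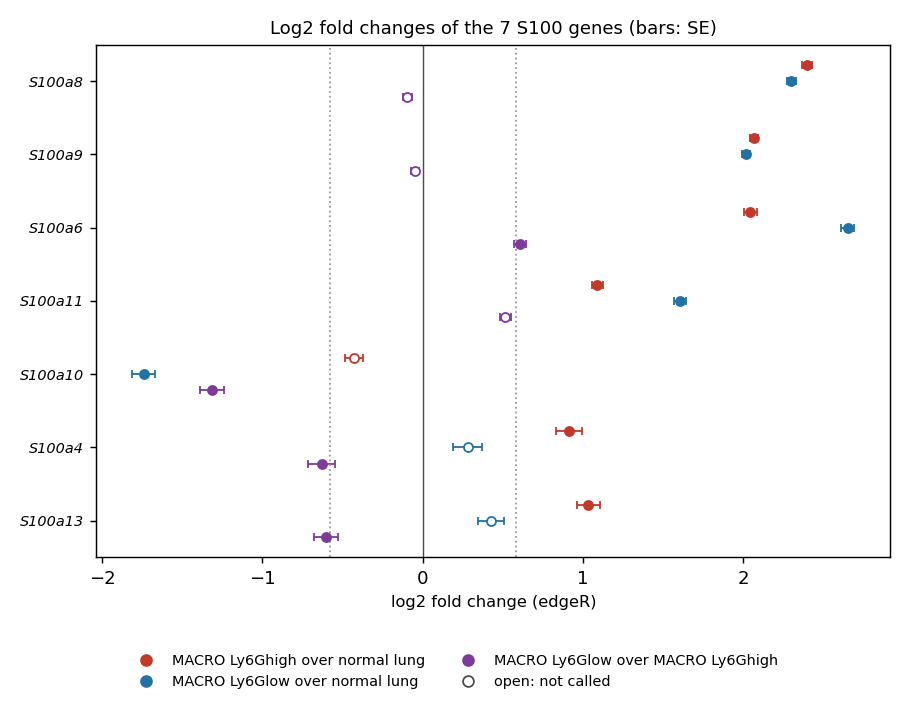
Log2 fold change (horizontal axis) of each S100 gene in the 3 comparisons, with bars for the SE, dotted lines at 0.58 and -0.58 and open points for genes not called. S100a6 has the largest value over normal lung in MACRO Ly6Glow (2.65), and S100a10 is the only member called lower there (-1.74).

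S100a6 and S100a11 rose in steps, from normal lung through MACRO Ly6Ghigh to MACRO Ly6Glow. The summed neutrophil markers given above rose in the same steps, from 9951 to 10268 CPM through 21678 to 22029 CPM to 31928 to 32358 CPM. Their relation to the S100a6 and S100a11 values was not tested. S100a6 encodes calcyclin, first described in proliferating cells, which binds the calcyclin-binding protein Cacybp. It was at 328.1, 335.2 and 301.7 CPM in normal lung, at 1398, 1307 and 1269.6 CPM in MACRO Ly6Ghigh and at 1991, 2031 and 2039 CPM in MACRO Ly6Glow. The lowest library of each group was above the highest of the group before it. The log2 fold change over normal lung was 2.04 ± 0.04 (adjusted p = 2.55e-21) in MACRO Ly6Ghigh and 2.65 ± 0.04 (adjusted p = 4.26e-23) in MACRO Ly6Glow, a 6.28-fold difference that ranked 102 among all genes tested. Between the MACRO groups it was 0.61 ± 0.04 (adjusted p = 8.13e-12). This last call lies close to the threshold and was lost without replicate 3 of MACRO Ly6Ghigh (0.575), on FPKM (0.37) and with total counts as the only scaling (0.37), each time with the same direction. On FPKM the S100a6 values over normal lung were 1.58 in MACRO Ly6Ghigh and 1.95 in MACRO Ly6Glow, both still called.

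S100a11 encodes calgizzarin, a partner of annexin A1. It was at 582, 528 and 555 CPM in normal lung, at 1205, 1158 and 1180.4 CPM in MACRO Ly6Ghigh and at 1723, 1714 and 1627 CPM in MACRO Ly6Glow. Its log2 fold change over normal lung was 1.09 ± 0.04 (adjusted p = 1.34e-17) and 1.60 ± 0.04 (adjusted p = 1.63e-20). Between the MACRO groups it was 0.52 ± 0.03 (adjusted p = 3.08e-11), under the fold threshold although the libraries did not overlap. On FPKM the S100a11 values over normal lung were 0.63 in MACRO Ly6Ghigh and 0.90 in MACRO Ly6Glow, both still called. By FPKM S100a11 held place 17 to 19 in all 9 libraries and S100a6 held place 22 to 25 in the MACRO libraries and 63 to 75 in normal lung, so both belonged to the abundant transcripts of these cells.

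S100a10 went the other way. Its protein, p11, has lost the ability to bind calcium and joins annexin A2 in a complex at membranes. It was at 48.3, 49.7 and 50.7 CPM in normal lung, at 40.2, 36.3 and 34.05 CPM in MACRO Ly6Ghigh and at 14.5, 14.8 and 15.2 CPM in MACRO Ly6Glow. The groups formed 3 separate levels, each below the one before. MACRO Ly6Glow was lower than MACRO Ly6Ghigh by a log2 fold change of -1.31 ± 0.07 (adjusted p = 1.41e-12), or 2.48-fold, and lower than normal lung by -1.74 ± 0.07 (adjusted p = 4.21e-16), or 3.34-fold. The value for MACRO Ly6Ghigh over normal lung was -0.43 ± 0.06 (adjusted p = 4.07e-07) and was not called, but it passed the threshold with upper-quartile scaling (-0.62), with at least 10 counts in every library (-0.60), on FPKM (-0.89) and with total counts only (-0.89).

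Anxa2, which encodes annexin A2, changed in the opposite direction. It was at 605, 561 and 588 CPM in normal lung, at 1359, 1371 and 1322 CPM in MACRO Ly6Ghigh and at 1636, 1694 and 1602 CPM in MACRO Ly6Glow. Its log2 fold change over normal lung was 1.21 ± 0.03 in MACRO Ly6Ghigh (adjusted p = 6.46e-19) and 1.49 ± 0.03 in MACRO Ly6Glow (adjusted p = 1.64e-20). The count ratio of S100a10 to Anxa2 fell from 7.99%, 8.86% and 8.62% in normal lung to 2.96%, 2.64% and 2.57% in MACRO Ly6Ghigh and 0.884%, 0.875% and 0.948% in MACRO Ly6Glow. The 3 groups were fully separate, and the exact permutation test gave p = 0.00357, the smallest the design allows (0.00536 after adjustment over the 3 ratios). S100a10 and Anxa2 are also used by epithelial and endothelial cells, whose markers were higher in normal lung as given above, and the part of those cells in the ratio was not tested. Between the MACRO groups, 3 of 8 epithelial markers were called lower in MACRO Ly6Glow, where 15.9% of all genes tested were. The 7 endothelial markers had log2 fold changes of 0.07 to 0.41 there. Of 12 alveolar macrophage markers, 9 were called lower there, with sums of 383.8 to 396.7 CPM in MACRO Ly6Ghigh and 85.6 to 86.1 CPM in MACRO Ly6Glow. Their sums in normal lung were 1225 to 1237 CPM. Compared with normal lung, 10 of the 12 were called lower in MACRO Ly6Ghigh and 11 in MACRO Ly6Glow, beside 36.6% and 40.8% of all genes tested. The alveolar macrophage sums had the same order of groups as S100a10 and its ratio to Anxa2. The part of these cells in the S100a10 values and the ratio was not tested.

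**Figure D3:**
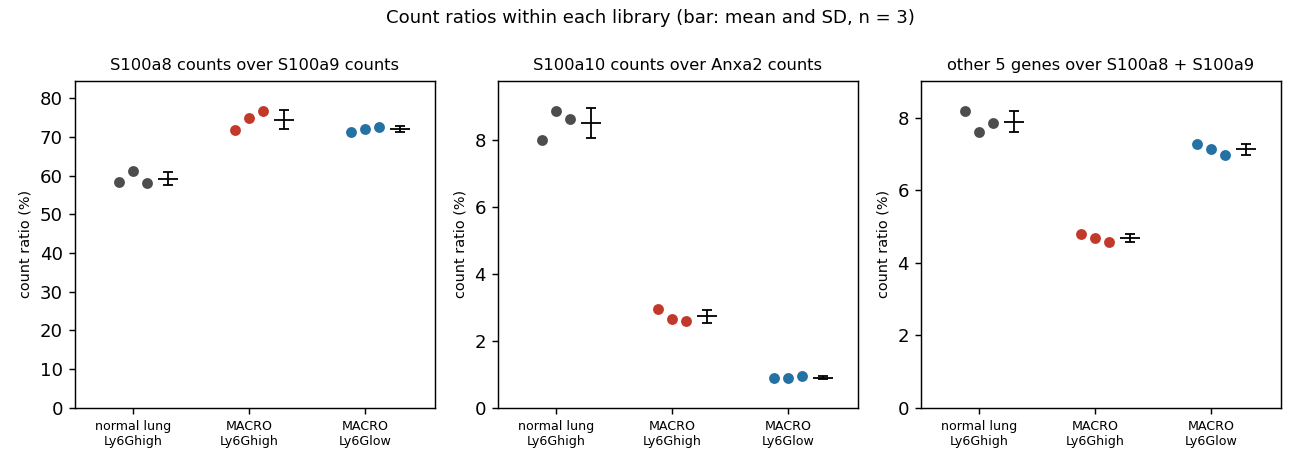
Count ratio in percent (vertical axis, from 0) in each of the 9 libraries by group, with the mean and SD of 3 libraries, for S100a8 over S100a9, S100a10 over Anxa2 and the other 5 genes over S100a8 plus S100a9. The first ratio is lowest in normal lung (58.1% to 61.2%), the second falls through 3 separate levels, and the third is lowest in MACRO Ly6Ghigh.

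S100a4 and S100a13 shared another pattern, with their highest level in MACRO Ly6Ghigh. S100a4 protein, also called metastasin, binds the heavy chain of nonmuscle myosin IIA. S100a4 was at 11.05, 11.95 and 12.4 CPM in normal lung, at 22.6, 24.1 and 19.9 CPM in MACRO Ly6Ghigh and at 14.2, 15.1 and 13.8 CPM in MACRO Ly6Glow. The MACRO Ly6Ghigh libraries were above all others. The log2 fold change was 0.91 ± 0.08 (adjusted p = 5.58e-10) for MACRO Ly6Ghigh over normal lung and -0.63 ± 0.08 (adjusted p = 1.57e-06) for MACRO Ly6Glow over MACRO Ly6Ghigh. Markers of eosinophils and basophils were also highest in MACRO Ly6Ghigh, though their sums in MACRO Ly6Glow and normal lung overlapped. The summed level of the 10 genes listed was 115.3 to 123 CPM in MACRO Ly6Ghigh, 26.5 to 32.6 CPM in MACRO Ly6Glow and 27.8 to 29.7 CPM in normal lung, with none at 0 in all libraries of a group. Of 9 tested, 8 were called higher in MACRO Ly6Ghigh than in normal lung, where 26.3% of all genes tested were. In MACRO Ly6Glow against MACRO Ly6Ghigh, 8 were called lower, where 15.9% of all genes tested were. The immature granulocyte sums given above stood in the CPM order of S100a4 and S100a13, highest in MACRO Ly6Ghigh and lowest in normal lung, with separate groups. The part of either kind of cell in the S100a4 and S100a13 values was not tested.
S100a13 protein takes part in the unconventional export of interleukin 1 alpha and of acidic fibroblast growth factor. S100a13 was at 10.8, 10.4 and 11.4 CPM in normal lung, at 20.8, 23.2 and 22.6 CPM in MACRO Ly6Ghigh and at 14.8, 14.6 and 14.3 CPM in MACRO Ly6Glow. Its log2 fold change was 1.03 ± 0.07 (adjusted p = 1.24e-11) and -0.61 ± 0.08 (adjusted p = 5.40e-07) in the same comparisons. Both lower calls between the MACRO groups sit near the threshold. They were lost without replicate 2 of MACRO Ly6Ghigh (-0.57 for each gene), which left 2 of the 7 members called in that comparison, and with DESeq2's size factors (-0.56 for S100a4 and -0.54 for S100a13). The call of S100a4 over normal lung in MACRO Ly6Ghigh was lost on FPKM (0.43) and with total counts only (0.45), and that of S100a13 with total counts only (0.57).

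Over normal lung, the MACRO Ly6Glow values of these genes, 0.28 ± 0.09 for S100a4 and 0.43 ± 0.08 for S100a13, were not called, and their sign depended on the scaling. On FPKM S100a4 was at 31.8 to 36.1 in normal lung and 24.7 to 26.9 in MACRO Ly6Glow, and the log2 fold changes became -0.40 for S100a4 and -0.13 for S100a13. With total counts only they were -0.42 and -0.27. These scalings moved the median of all genes tested as well, to -0.25 on FPKM, to -0.56 on FPKM of at least 1 and to -0.86 with total counts only. S100a13 lay above that median in all 3. S100a4 lay above it by 0.16 on FPKM of at least 1 and by 0.44 with total counts only, but below it by a difference of -0.16 on FPKM without that filter. In the comparison of the MACRO groups the split of calls also moved with scaling. With DESeq2's size factors 2 members were called higher, S100a6 and S100a11, and 1 lower, S100a10, whereas on FPKM and with total counts only the 3 lower calls of S100a10, S100a4 and S100a13 were kept and that of S100a6 was not.

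**Figure D4:**
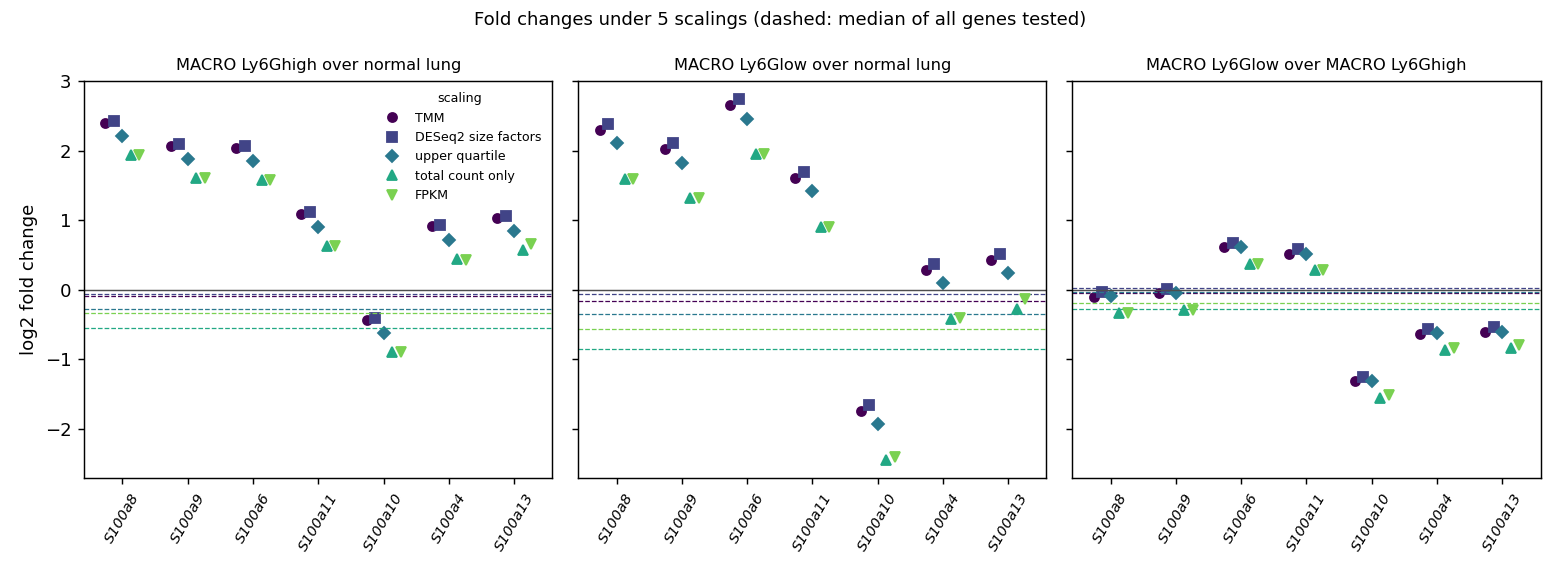
Log2 fold change (vertical axis) of each S100 gene in the 3 comparisons under 5 scalings, with dashed lines at the median of all genes tested under each. Against normal lung, FPKM (genes with at least 1 in 3 libraries) and total counts give lower values for every gene together with a lower median.

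Together the 5 less abundant members held 0.240% to 0.254% of all counts in MACRO Ly6Ghigh, 0.299% to 0.304% in MACRO Ly6Glow and 0.122% to 0.127% in normal lung. Their counts relative to S100a8 plus S100a9 were 4.58% to 4.78% in MACRO Ly6Ghigh, 6.97% to 7.27% in MACRO Ly6Glow and 7.61% to 8.19% in normal lung. The groups did not overlap and the exact permutation test gave p = 0.00357 (0.00536 after adjustment). S100a6 and S100a11 supply nearly all of these counts, with S100a10 at 19.1 to 109.6 FPKM, S100a4 at 24.7 to 50.8 FPKM and S100a13 at 16.8 to 32.1 FPKM over the 9 libraries.

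The rest of the family was scarce. Of 9 other S100 genes listed, 7 had values and 5 passed the filter on low counts. S100a1, a regulator of calcium handling best known from muscle, was at 15.5 to 18.6 CPM in normal lung, 9.57 to 11.6 CPM in MACRO Ly6Ghigh and 2.39 to 4.74 CPM in MACRO Ly6Glow. It was lower in MACRO Ly6Glow than in MACRO Ly6Ghigh by a log2 fold change of -1.56 ± 0.16 (adjusted p = 3.29e-08) and was the only one of the 5 called there. S100a16 was at 10.3 to 12.7 CPM in normal lung against 1.05 to 1.83 CPM in the MACRO libraries, a log2 fold change of -3.15 ± 0.15 in MACRO Ly6Ghigh (adjusted p = 1.89e-14). S100a14 and S100g were also called lower in both MACRO groups, with 15 to 26 and 16 to 19 counts per library in normal lung and 1 to 5 and 1 to 4 counts in the MACRO libraries. S100a7a was called higher in both, with 10 to 14.97 counts in normal lung and 17.01 to 33.2 counts in the MACRO libraries, calls that were lost on FPKM with a pseudocount of 1 (0.37 and 0.56 on the log2 scale). S100a3 and S100b stayed below the filter. The epithelial, endothelial and fibroblast markers given above fell in the same direction as S100a16, S100a14 and S100g, and their part in these values was not tested.

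Genes for receptors of S100 proteins were read from a list of 8, and differences are given as log2 fold changes. In MACRO Ly6Glow against MACRO Ly6Ghigh 3 were called higher, where 9.29% of all genes tested were. Tlr4, the calprotectin receptor Toll-like receptor 4, was at 406 to 448 CPM in MACRO Ly6Glow, 246 to 254 CPM in MACRO Ly6Ghigh and 306 to 362 CPM in normal lung, with a log2 fold change of 0.76 ± 0.05 between the MACRO groups (adjusted p = 2.13e-11). On FPKM normal lung was highest for Tlr4, at 50.55 to 61.04, against 41.57 to 46.04 in MACRO Ly6Glow and 29.83 to 30.65 in MACRO Ly6Ghigh. Bsg, which encodes the S100A9 receptor basigin, changed by 0.60 ± 0.05 (adjusted p = 4.90e-10) and Alcam by 0.60 ± 0.05 (adjusted p = 3.47e-10). All 3 calls were lost on FPKM, where the log2 fold changes were 0.51 for Tlr4, 0.31 for Bsg and 0.33 for Alcam, and that of Bsg was also lost without replicate 3 of MACRO Ly6Ghigh (0.57) or replicate 1 of MACRO Ly6Glow (0.57). Against normal lung, 1 was called higher and 3 lower in MACRO Ly6Ghigh, and 3 higher and 3 lower in MACRO Ly6Glow. Of all genes tested, 26.3% were called higher and 36.6% lower in MACRO Ly6Ghigh, and 28.7% and 40.8% in MACRO Ly6Glow. Emb, which encodes embigin, rose in both, by 1.52 ± 0.03 (adjusted p = 2.67e-20) and 2.01 ± 0.03 (adjusted p = 2.97e-22). Ager, the receptor for advanced glycation end products and a mark of alveolar type I epithelium, fell in both, by -2.98 ± 0.06 (adjusted p = 5.46e-21) and -2.71 ± 0.06 (adjusted p = 2.50e-20), together with the epithelial markers. Bsg and Nptn were higher in MACRO Ly6Glow than in normal lung by CPM, but closer to it on FPKM. Mean FPKM in MACRO Ly6Glow and normal lung were 81.04 and 81.85 for Bsg, and 53.31 and 50.50 for Nptn.

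Among 13 genes of binding partners, again with differences as log2 fold changes, 2 were called lower in MACRO Ly6Glow against MACRO Ly6Ghigh and the other 11 were not called. The 2 were Anxa5 (-0.95 ± 0.04, adjusted p = 5.79e-14) and the tubulin gene Tubb5 (-0.91 ± 0.04, adjusted p = 1.09e-13). Of all genes tested, 15.9% were called lower in this comparison. Against normal lung, 5 were called higher and 5 lower in MACRO Ly6Ghigh, and 5 higher and 7 lower in MACRO Ly6Glow. The shares over all genes tested were 26.3% higher and 36.6% lower in MACRO Ly6Ghigh, and 28.7% and 40.8% in MACRO Ly6Glow. Anxa1, the partner of S100a11, rose over normal lung by 2.39 ± 0.03 (adjusted p = 2.62e-24) in MACRO Ly6Ghigh and by 1.87 ± 0.03 (adjusted p = 7.28e-23) in MACRO Ly6Glow. Myh9, the myosin heavy chain that S100a4 binds, rose by 0.80 ± 0.03 (adjusted p = 1.66e-16) and 0.89 ± 0.03 (adjusted p = 1.91e-17), calls that were lost on FPKM (0.33 and 0.19). The cargo genes of S100a13 fell, Il1a by -1.25 ± 0.03 (adjusted p = 9.54e-19) and -1.71 ± 0.04 (adjusted p = 9.87e-21), and Fgf1 by -3.19 ± 0.09 (adjusted p = 1.17e-18) and -2.98 ± 0.09 (adjusted p = 6.06e-18). Il1a had the same order of groups as the summed alveolar macrophage markers, and the part of those cells in its values was not tested. Fgf1 fell in the same direction as the epithelial, endothelial and fibroblast markers, and their part in its values was not tested. Cacybp, the partner of S100a6, had log2 fold changes of -0.13 ± 0.08 and -0.70 ± 0.09, of which only the second was called (adjusted p = 1.50e-07), although the first was also called with total counts only (-0.60).

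Genes for transcription factors of granulocyte development and inflammation were read from a list of 10, with differences as log2 fold changes. In MACRO Ly6Glow against MACRO Ly6Ghigh 4 were called higher and 4 lower, where 9.29% of all genes tested were called higher and 15.9% lower. Cebpb, a factor of emergency granulopoiesis, rose by a log2 fold change of 0.89 ± 0.06 (adjusted p = 8.43e-12) and Hif1a by 0.84 ± 0.04 (adjusted p = 2.58e-13), with Stat3 and Rela also higher, the last 2 not past the threshold on FPKM (0.41 and 0.42). Cebpe, which drives genes of the later granules, fell by -2.56 ± 0.09 (adjusted p = 4.59e-16) and Gfi1 by -2.27 ± 0.24 (adjusted p = 3.30e-08), with Cebpa and Klf5 also lower. Against normal lung, 5 were called higher and 1 lower in MACRO Ly6Ghigh, and 7 higher and 2 lower in MACRO Ly6Glow. The shares over all genes tested were 26.3% higher and 36.6% lower in MACRO Ly6Ghigh, and 28.7% and 40.8% in MACRO Ly6Glow. Spi1, which encodes PU.1, rose over normal lung by 1.02 ± 0.05 (adjusted p = 6.17e-15) and 1.26 ± 0.05 (adjusted p = 1.12e-16), values that fell just short of the threshold on FPKM (0.54 and 0.55), while Cebpa fell by -1.68 ± 0.06 (adjusted p = 2.66e-16) and -2.66 ± 0.08 (adjusted p = 1.43e-18). The summed alveolar macrophage markers had the same order of groups as Cebpa, and their part in its values was not tested. Cebpe in MACRO Ly6Glow was above normal lung by 0.96 and was called, but not on FPKM (0.22) or with total counts only (0.26). The rises of Cebpb, Hif1a, Stat3 and Klf5 in MACRO Ly6Glow over normal lung also shrank on FPKM, and that of Cebpd disappeared. Mean FPKM in MACRO Ly6Glow and normal lung were 1232 and 837 for Cebpb and 165.6 and 114.9 for Hif1a. They were 190.8 and 151.7 for Stat3, 7.65 and 6.22 for Klf5, and 44.4 and 47.6 for Cebpd.

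**Figure D5:**
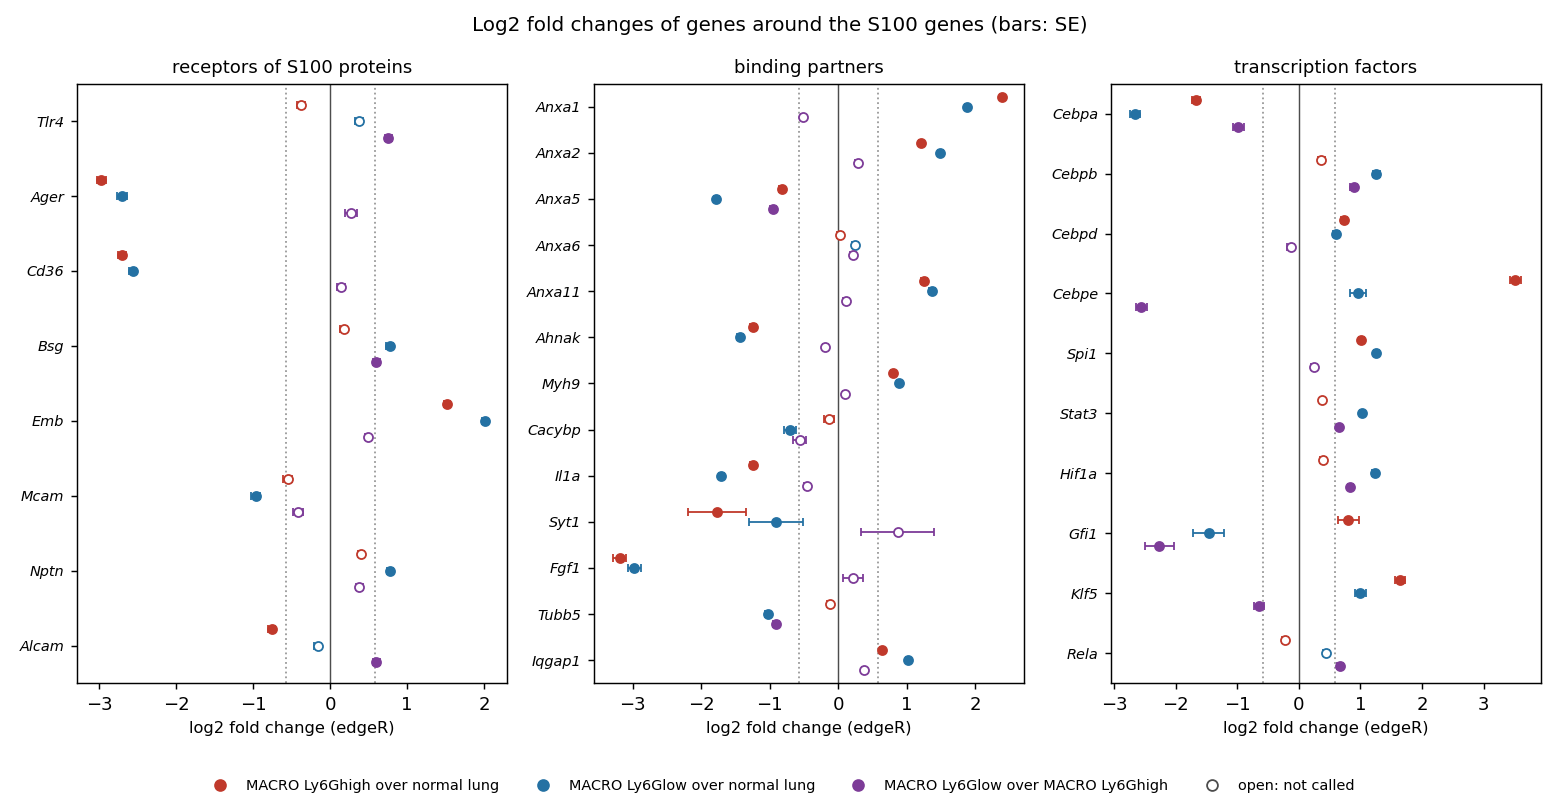
Log2 fold change (horizontal axis, bars for the SE) of 8 receptor, 13 partner and 10 transcription factor genes in the 3 comparisons, with dotted lines at 0.58 and -0.58 and open points for genes not called. Ager and Cd36 lie far below 0 against normal lung, Anxa1 lies far above, and Cebpe is high in MACRO Ly6Ghigh (3.52 over normal lung) and lower in MACRO Ly6Glow (0.96).

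The genes whose pattern came closest to the calprotectin genes were found by the root mean square difference of centred log2 CPM over the 9 libraries, among 3342 genes with a mean of at least 50 CPM. For S100a8 the nearest were Dach1 (0.060) and Asnsd1 (0.075). For S100a9 the nearest were Tcp11l2 (0.047), Rab27a (0.050) and Vsir (0.052). The same measure between S100a8 and S100a9 was 0.149. The genes named were picked as the nearest of all compared, so smaller values for them follow largely from that choice. How many genes lay within 0.149 was not counted. All points share their libraries and scaling. Vsir, for example, was at a mean of 1299 ± 11.2 CPM (SD, n = 3) in MACRO Ly6Ghigh, 1308 ± 29.6 CPM in MACRO Ly6Glow and 326 ± 12.04 CPM in normal lung. On FPKM, Asnsd1 remained among the nearest 3 for S100a8, and Tcp11l2 and Rab27a for S100a9.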

How the data were processed

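RNA of sorted neutrophils was measured in 9 libraries, 3 per group. Per the labels, RNA was extracted with TRIzol, poly(A) selected and made into strand-marking libraries with paired reads, and the submitters' processing notes name the build mm10. The authors deposited estimated counts of reads per gene, without normalization, and FPKM values, normalized for transcript length and depth. Aligner, counter and strand setting are not given in the sources used here. Of the estimated counts 37.9% were whole, and all were rounded for the tests.

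The tests used edgeR 4.0.16 in R 4.3.3, with filterByExpr by group, TMM scaling and a single quasi-likelihood model of all 9 libraries. The study's own analysis used DESeq2. Standard errors are the log2 fold change divided by the square root of F. FPKM were tested with limma 3.58.1 on log2(FPKM + 1) as an alternative. Scripts were tested on simulated data. Of 22064 genes listed 3739 were blank. Groups were taken from titles and treatment fields. Positions come from GENCODE M21, copies from BLAST 2.17.0 and promoters from RefSeq GRCm38.p6. Single genes outside the 7 were named from the fixed lists or the nearest-pattern rule, and examples within lists were chosen after their values were seen. One gene that the nearest-pattern rule picked is not reported here. The members and gene lists were chosen with earlier results of these data known.

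Alternatives were DESeq2's size factors, upper-quartile scaling, DESeq2 1.42.0, other filters and fold thresholds, the 6 libraries of a comparison, FPKM with limma, a replicate block, leaving out each library, and, added after the data were seen, total counts only. At this depth a library held 175 to 531286 counts for the members, which limits counting error, and the exact two-sided test of 3 libraries against 3 cannot fall below p = 0.1.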

Additional observations from a re-analysis of the deposited data

How the results depend on the processing

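Of 357 alternative values over 21 log2 fold changes of the members, 323 kept their direction and their side of the threshold, 16 lost a call, 8 gained one and 10 changed sign. The sign changes were S100a9 in MACRO Ly6Glow over MACRO Ly6Ghigh with DESeq2's size factors and in DESeq2 itself (0.017 for both), S100a4 in MACRO Ly6Glow over normal lung on FPKM with a pseudocount of 1 (-0.40, and -0.40 with a filter at 1), with 0.1 (-0.42) and with total counts only (-0.42), and S100a13 there under the same settings (-0.13, -0.13, -0.14 and -0.27). None of these was called in the main test. Of 792 alternative values for 47 differences of the other genes named, 739 kept direction and call, 47 lost a call and 2 gained one, and 4 changed sign, all for Ly6g in MACRO Ly6Glow over MACRO Ly6Ghigh, which was -0.16 in each of the 3 fits on FPKM and with total counts only. The 4 members called between the MACRO groups became 1 with a fold threshold of 1 and 2 to 4 when a library was left out, the lowest without replicate 2 of MACRO Ly6Ghigh. The replicate block gave 4, 6 and 5 members called, as without it, and changed no call. Libraries with the same number did not deviate together (correlations of -0.068 to 0.077 over 9 pairs), so the numbers were not taken as pairs, and the 3 ratios gave p = 0.0278 with the block, the smallest it allows. The causes of these shifts were not tested, other than that scaling moves all genes together. Levels near 10 CPM, as for S100a4 and S100a13, carry the largest errors.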
